A study of Mus musculus with 11 samples.

Results

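C1qa, C1qb and C1qc are the genes of the C1q complement protein. They were taken by name from the deposited table of Nanostring counts, in which they are 3 of 754 genes. All 3 lay above the lower reporting limit of 30 normalized counts in every mouse, and all 3 passed the filter on low values (a mean above 30), as did 445 genes in all. Because lower values are set to 30, this filter removed only the 309 genes at the limit in every mouse. Just 303 genes were above the limit in every mouse, so the shares of all tested genes given below include genes at the limit in some mice. The counts came from peritoneal macrophages (CD11b+F4/80+) sorted from 11 female C57BL/6 mice (C57BI/6 in the labels), 6 to 8 weeks old. Mice had received PBS or IL-4c, a complex of the cytokine IL-4 with an antibody to it, into the peritoneal cavity on days 0 and 2, and cells were sorted on day 4. Both treatments were given to wild-type mice (Rα+/+) and to mice homozygous for the Td allele (RαTd/Td), in which coding exons of Retnla, the gene of the secreted protein RELMα, are replaced by a TdTomato reporter. The groups held 2 PBS Rα+/+ mice (numbered 1 and 2), 2 PBS RαTd/Td mice (3 and 4), 3 IL-4c Rα+/+ mice (5, 6 and 7) and 4 IL-4c RαTd/Td mice (9, 10, 11 and 12). An IL-4c Rα+/+ sample that the study set aside was not analysed here. The paper describes it as an outlier that grouped with PBS mice by principal components, with less RELMα in peritoneal fluid and fewer peritoneal cells. It proposes ineffective IL-4c delivery as the likely reason. The IL-4c Rα+/+ group was thus chosen partly by expression profile, while all 4 IL-4c RαTd/Td mice were kept. The effect of this choice on the C1q values was not tested. The Td allele came from a cross to a ubiquitous (CMV promoter) Cre deleter line, so RELMα is absent from all cells of these mice and not from macrophages alone, and the sort gate did not separate small from large peritoneal macrophages.

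C1q is the recognition molecule of the classical complement pathway. It is assembled from A, B and C chains, binds antibody in immune complexes and the surface of dying cells, and activates the proteases C1r and C1s, which cleave C4 and C2. Unlike most complement proteins, which the liver secretes, C1q is made mainly by macrophages and related myeloid cells, and it assists in the uptake of apoptotic cells. The chains have a gene each, and the genes lie side by side. In the RefSeq annotation of mouse assembly GRCm38.p6, all 3 are on chromosome 4: C1qb at chr4:136880126-136886200 (gene ID 12260), C1qc at chr4:136889801-136892936 (gene ID 12262) and C1qa at chr4:136895916-136898844 (gene ID 12259). Together they span 18719 bases.

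Because all 3 members were lower after IL-4c, the 250 bases before the start site are shown for C1qb (chr4:136886201-136886450, minus strand) and C1qc (chr4:136892915-136893164, minus strand), from RefSeq on GRCm38.p6. The table used held no entry for C1qa. The C1qc window counts from a start site inside the gene span given above, which ends at 136892936. The last bases of that window, from 136892936 to 136892915, thus lie within the span. Capitals mark matches to GAGGAA, a core bound by the myeloid factor PU.1, on either strand.
C1qb: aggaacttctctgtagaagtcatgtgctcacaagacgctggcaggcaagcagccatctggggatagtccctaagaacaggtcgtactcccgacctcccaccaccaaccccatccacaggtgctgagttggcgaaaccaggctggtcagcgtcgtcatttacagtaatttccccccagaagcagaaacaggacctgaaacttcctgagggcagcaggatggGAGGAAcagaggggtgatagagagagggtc
C1qc: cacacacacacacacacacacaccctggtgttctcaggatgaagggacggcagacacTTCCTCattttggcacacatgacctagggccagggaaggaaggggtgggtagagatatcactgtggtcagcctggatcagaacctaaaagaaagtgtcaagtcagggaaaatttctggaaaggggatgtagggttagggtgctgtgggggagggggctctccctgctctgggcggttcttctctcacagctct
C1qb held GAGGAA at positions -30 to -25 from the start site. C1qc held the same core read on the other strand, TTCCTC, at -193 to -188. Of 32851 mouse promoter windows of this length, 23.3% held GAGGAA on either strand, so such matches are common. Their part in the fall after IL-4c was not tested.

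Retnla checked the genotype labels. It was measured at 4631 and 4141 normalized counts in PBS Rα+/+ mice and at 115675, 147349 and 171588 in IL-4c Rα+/+ mice, and it was at the limit of 30 in all 6 RαTd/Td mice. The recovered total was 268858 to 574505 counts per mouse, and a single C1q gene had between 2163 and 18726 counts in a mouse. The geometric mean of the assay's positive control probes was 853 to 1021 counts in PBS lanes and 301 to 623 in IL-4c lanes, a split that followed treatment. Its part in the results was not tested, although ratios of genes within a mouse do not depend on it through the scaling. The macrophage markers Adgre1, Itgam, Csf1r, Cd68 and Mertk were above the limit in the sort, with a summed level of 22298 to 23707 normalized counts after PBS and 23293 to 28965 after IL-4c. Its members did not move as 1, since in Rα+/+ mice Csf1r fell 1.97-fold (limma adjusted p = 0.00142) and Mertk 2.11-fold (limma adjusted p = 0.00128), while Adgre1 rose 1.42-fold (limma adjusted p = 0.0187). On the first principal component of the tested genes, PBS mice lay at -19.6 to -14.5, and IL-4c mice 5, 6, 7, 9 and 10 at 10.3 to 14.2. IL-4c RαTd/Td mice 11 (5.34) and 12 (4.31) stood nearer to PBS mice than any other IL-4c mouse. The C1q falls in RαTd/Td mice and the C1q genotype differences after IL-4c are given with and without them. Not all results of other genes are.

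C1qa, the gene of the A chain, was measured at 8572 and 7972 normalized counts in PBS Rα+/+ mice and at 8955 and 9538 in PBS RαTd/Td mice. After IL-4c it was at 3164, 3016 and 2509 in Rα+/+ mice and at 3461, 4304, 5141 and 5463 in RαTd/Td mice. No IL-4c mouse reached the lowest PBS mouse, and the 4 IL-4c RαTd/Td mice all lay above the 3 IL-4c Rα+/+ mice. Group means were 8272 ± 424 (SD, n = 2), 9246 ± 412 (SD, n = 2), 2896 ± 343 (SD, n = 3) and 4592 ± 899 (SD, n = 4), in the order PBS Rα+/+, PBS RαTd/Td, IL-4c Rα+/+ and IL-4c RαTd/Td.

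C1qb, the gene of the B chain, stood at 10374 and 10524 normalized counts in PBS Rα+/+ mice and at 9939 and 11316 in PBS RαTd/Td mice. The IL-4c values were 5960, 6405 and 5966 in Rα+/+ mice and 6466, 8241, 8458 and 7881 in RαTd/Td mice. The order of groups was as for C1qa after IL-4c, but the gap to the PBS mice was smaller and the PBS genotypes overlapped. In the same order of groups, means were 10449 ± 106 (SD, n = 2), 10628 ± 974 (SD, n = 2), 6110 ± 255 (SD, n = 3) and 7762 ± 896 (SD, n = 4).

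C1qc, the gene of the C chain, was at 15239 and 14043 normalized counts in PBS Rα+/+ mice and at 14882 and 16576 in PBS RαTd/Td mice. After IL-4c, Rα+/+ mice had 5955, 6382 and 5814 and RαTd/Td mice 7120, 8813, 10148 and 10112. Again every IL-4c mouse lay below every PBS mouse, the 2 IL-4c groups did not overlap, and the PBS genotypes did. The means were 14641 ± 846 (SD, n = 2), 15729 ± 1198 (SD, n = 2), 6050 ± 295 (SD, n = 3) and 9048 ± 1428 (SD, n = 4).

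For each member the means thus ran, from lowest to highest, IL-4c Rα+/+, IL-4c RαTd/Td, PBS Rα+/+ and PBS RαTd/Td. Neither the lowest pair of groups nor the highest pair was called different for any member. The neighbours between them, IL-4c RαTd/Td and PBS Rα+/+ mice, did not overlap for any member, and no test was made of them. The SD was largest in IL-4c RαTd/Td mice for C1qa and C1qc, where it was 19.6% and 15.8% of the mean. Within that group mouse 9 was lowest for all 3 members, by 0.39, 0.26 and 0.33 on the log2 scale below the group's mean log2 level for C1qa, C1qb and C1qc, and mice 11 and 12 were above that mean for all 3.

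**Figure D1:**
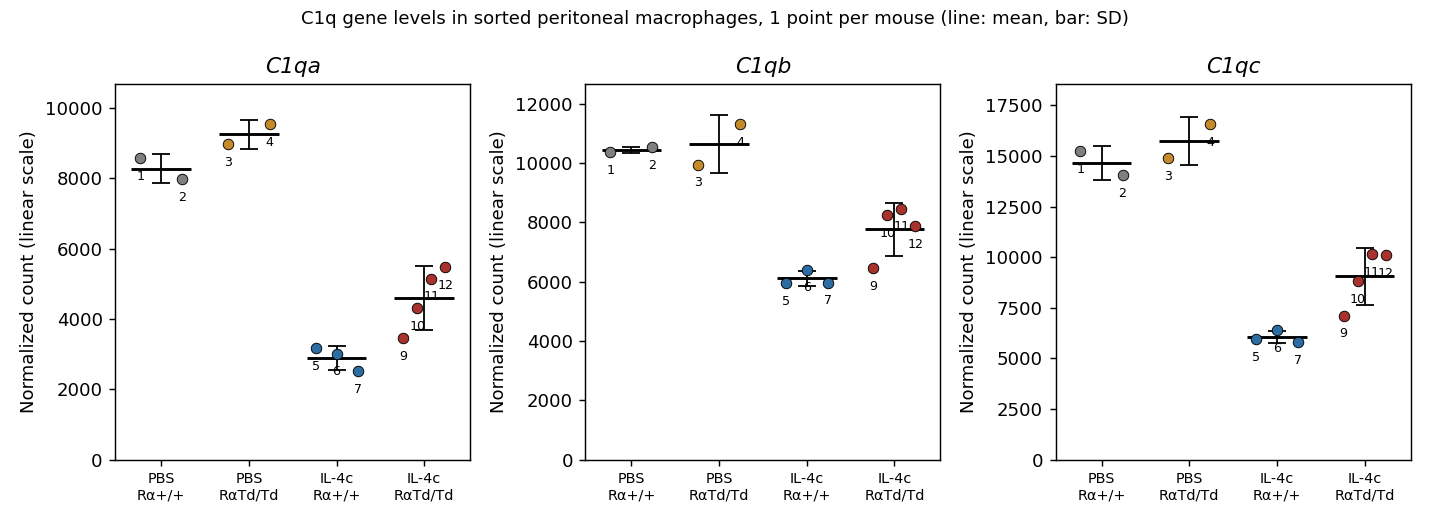
Normalized counts of C1qa, C1qb and C1qc (linear axes from 0) in each mouse, by group, with mouse numbers, group means (lines) and SD (bars). The 7 IL-4c mice lie below the 4 PBS mice for each gene, and the IL-4c RαTd/Td mice lie above the IL-4c Rα+/+ mice.

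IL-4c lowered all 3 C1q genes in Rα+/+ mice. Differences were tested with limma on log2(normalized count + 1) in 1 model of all 11 mice, with Benjamini-Hochberg adjustment over the 445 genes of a comparison, and a gene was called at an adjusted p of 0.05 or less. C1qa fell by 1.52 on the log2 scale (95% CI -1.95 to -1.09, limma adjusted p = 0.000176), or 2.87-fold. C1qc fell by 1.27 (95% CI -1.63 to -0.92, limma adjusted p = 0.000174), or 2.42-fold. C1qb fell least, by 0.77 (95% CI -1.07 to -0.48, limma adjusted p = 0.00119), or 1.71-fold. In wild-type macrophages the level after IL-4c was thus 34.9% of that after PBS for the A chain gene, 41.3% for the C chain gene and 58.5% for the B chain gene.

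Of all tested genes, 46.3% were called in this comparison and 32.4% were called lower, and in 42.9% the groups did not overlap with IL-4c lower. A fall was therefore common on this panel, and the median gene stood at -0.18 on the log2 scale. Since the study named the C1q genes on these same mice, the count is not independent evidence of its direction. Among the tested genes C1qa was the 44th, C1qc the 58th and C1qb the 106th by size of fall. All 3 calls held under each of 27 alternative settings, over which C1qa ranged from -1.59 to -1.17, C1qb from -0.81 to -0.43 and C1qc from -2.11 to -0.93. In sorted bulk cells, fewer cells of a type that makes a transcript and less of the transcript per cell cannot be told apart.

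RαTd/Td macrophages also had lower C1q levels after IL-4c. C1qa fell by 1.03 on the log2 scale (95% CI -1.44 to -0.62, limma adjusted p = 0.00126), which left 48.9% of its PBS level. C1qc fell by 0.81 (95% CI -1.15 to -0.47, limma adjusted p = 0.00166), which left 57.0%. C1qb fell by 0.46 (95% CI -0.74 to -0.18, limma adjusted p = 0.0127), which left 72.8%. The order of the members was the same as in wild-type mice. Here 51.9% of all tested genes were called and 36.6% were called lower, and in 43.6% the groups did not overlap with IL-4c lower, while the median gene stood at -0.23. Without mice 11 and 12 the values were -1.26 for C1qa, -0.54 for C1qb and -0.99 for C1qc, and all 3 were still called.

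The C1qb fall in RαTd/Td mice depended on the scaling of mice and on 1 control mouse. It was -0.20 (limma adjusted p = 0.25) where each mouse was centred on its median gene and -0.11 (limma adjusted p = 0.527) where mice were scaled to the summed counts of other genes. Without PBS mouse 4 it was -0.36 (limma adjusted p = 0.112).

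The summed level of large peritoneal macrophage markers was lower after IL-4c too. The list holds Timd4, Gata6, Cxcl13 and Selp among its 4 of 5 genes on the panel, and its summed level was 6329 to 9088 normalized counts after PBS, 2686 to 2784 after IL-4c in Rα+/+ mice and 3165 to 4080 after IL-4c in RαTd/Td mice. Within that list Timd4, a receptor for phosphatidylserine, fell by 1.48 in Rα+/+ mice (limma adjusted p = 0.000174), whereas Gata6, the transcription factor that defines these cells, was at -0.00 (limma adjusted p = 1). The other markers of that list, Cxcl13 (-5.85, limma adjusted p = 0.000123) and Selp (-1.01, limma adjusted p = 0.000606), were also called lower in Rα+/+ mice. Cxcl13 was at the limit in every IL-4c Rα+/+ mouse, so the size of its fall is uncertain. In PBS mice 105 to 242 normalized counts were found for Ms4a1, the 1 B cell marker of 6 on the panel, and at most 63.1 in IL-4c mice. The summed neutrophil markers were at 334 to 630 after PBS and at most 151 after IL-4c, with Ly6g, Cxcr2 and Mpo at the limit in every mouse. Most of the sum after PBS was Csf3r, at 251 to 555 normalized counts. In PBS mice S100a8 was at most 82.5 and S100a9 was at the limit. All 5 eosinophil markers and the 3 dendritic cell markers of 4 on the panel were at the limit in every mouse, of 3 mast cell markers on the panel 1 was above it in 1 mouse, and no T cell marker was on the panel. The part of these other cells in the C1q levels was not tested.

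Between genotypes after PBS, no C1q gene was called. C1qa was at 0.16 in RαTd/Td against Rα+/+ mice (95% CI -0.31 to 0.63, limma adjusted p = 0.729), C1qb at 0.02 (95% CI -0.31 to 0.35, limma adjusted p = 1) and C1qc at 0.10 (95% CI -0.29 to 0.49, limma adjusted p = 0.814). For C1qa both RαTd/Td mice lay above both Rα+/+ mice, as was the case for 35.5% of all tested genes, while 9.66% were called. The sign of each of the 3 values turned under at least 2 of the scalings tried. With 2 mice a group, the intervals still include a C1qa level 1.55-fold higher in RαTd/Td mice.

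After IL-4c, C1q levels were higher in RαTd/Td than in Rα+/+ mice without overlap of the groups, but no member was called. C1qa was 1.57-fold higher (0.65 on the log2 scale, 95% CI 0.29 to 1.01, limma adjusted p = 0.0818). C1qc was 1.48-fold higher (0.57, 95% CI 0.27 to 0.86, limma adjusted p = 0.0627). C1qb was 1.26-fold higher (0.34, 95% CI 0.09 to 0.59, limma adjusted p = 0.131). Each interval lay above 0 before adjustment, and an unadjusted p at or under 0.05 was reached by 97 of the 445 genes (21.8%), whereas 12 (2.7%) were called. In 16.4% of the tested genes the groups did not overlap with RαTd/Td higher. By unadjusted p, C1qc was the 13th and C1qa the 14th gene of the comparison.

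Whether the members were called rested on mouse 9 of the RαTd/Td group. Without mouse 9, the lowest of its group, all 3 members were called, at 0.78 for C1qa (limma adjusted p = 0.0120), 0.42 for C1qb (limma adjusted p = 0.0271) and 0.68 for C1qc (limma adjusted p = 0.0110). Without mice 11 and 12 none was called and the values were 0.42 (limma adjusted p = 0.240), 0.26 (limma adjusted p = 0.436) and 0.39 (limma adjusted p = 0.167). The sign was the same under every alternative run, but the C1qb value shrank to 0.02 with quantile normalization. Of 8 markers of small peritoneal macrophages and monocytes used here, 6 were on the panel. Between these groups the antigen presentation genes H2-Aa (1.31, limma adjusted p = 0.0474) and H2-Ab1 (1.36, limma adjusted p = 0.0421) were called higher in RαTd/Td mice. Whether these calls hold without mice 11 and 12 is not given. The other markers were not called and their groups overlapped, at 1.08 for Cd74, 1.22 for H2-Eb1, 0.92 for Ccr2 and -0.14 for Irf4. The summed level of the 6 was 4405 to 7630 normalized counts in IL-4c Rα+/+ mice and 7071, 12415, 13297 and 18458 in mice 9, 10, 11 and 12, so that mouse 9 lay within the Rα+/+ range. It was 7554 and 9262 in PBS Rα+/+ mice and 24411 and 32687 in PBS RαTd/Td mice, groups in which no C1q gene was called different. The part of such cells in the C1q levels was not tested.

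The fall with IL-4c was smaller in RαTd/Td mice for each member, but the difference in response between genotypes was not called. It was 0.49 for C1qa (95% CI -0.10 to 1.08, limma adjusted p = 0.406), 0.32 for C1qb (95% CI -0.09 to 0.73, limma adjusted p = 0.443) and 0.46 for C1qc (95% CI -0.03 to 0.96, limma adjusted p = 0.342). All 3 intervals include 0, and 2.02% of all tested genes were called in this test. With quantile normalization the value for C1qc was 1.02 (limma adjusted p = 0.0385). The treatment and genotype comparisons share mice, so their values are not independent of each other.

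**Figure D2:**
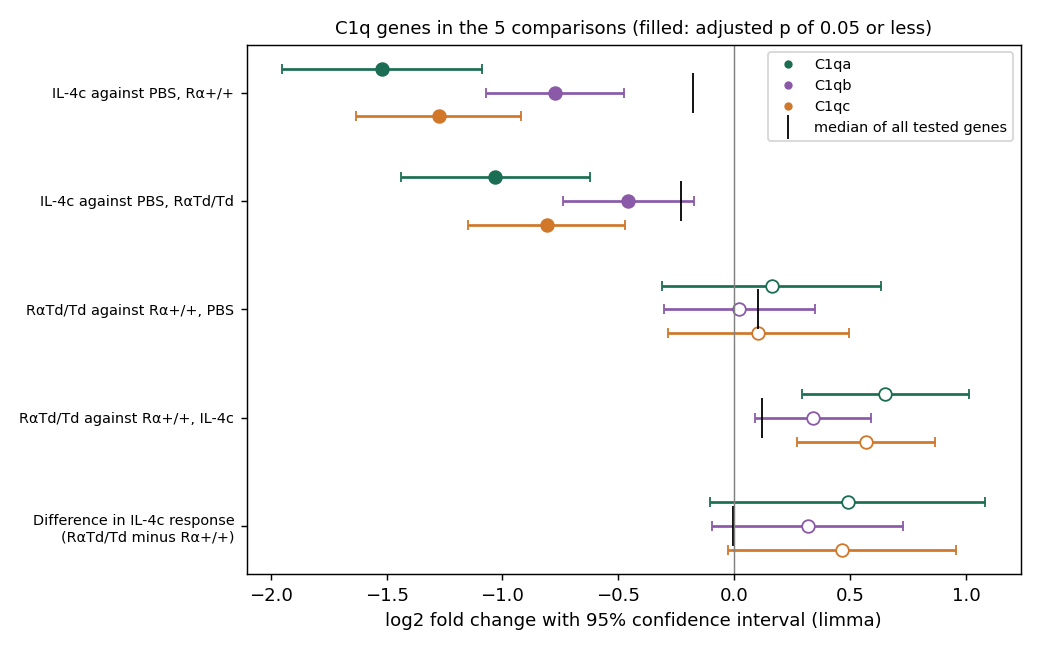
Log2 fold changes of C1qa, C1qb and C1qc in the 5 comparisons, with 95% confidence intervals from limma, filled symbols for an adjusted p of 0.05 or less, and the median of all tested genes as a black tick. The 6 IL-4c against PBS values are filled and run from -1.52 to -0.46, and none of the genotype values is filled.

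The balance among the C1q genes also shifted with treatment. Probes differ in how well they capture their transcript, so a ratio does not say which chain's mRNA was more abundant, and only its change between mice is read. C1qa over C1qb was 0.758 to 0.901 in the 4 PBS mice and 0.421 to 0.693 in the 7 IL-4c mice. C1qc over C1qb was 1.33 to 1.50 after PBS and 0.975 to 1.28 after IL-4c. C1qa over C1qc shifted least, from 0.562 to 0.602 after PBS to 0.432 to 0.540 after IL-4c. None of these ranges overlapped between treatments. The normalization, which multiplies all genes of a mouse by 1 factor, cancels from such ratios, and they show that C1qb kept a larger part of its PBS level than the other members in these mice.

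By genotype after IL-4c, C1qc over C1qb was 0.999, 0.996 and 0.975 in Rα+/+ mice 5, 6 and 7 and 1.10, 1.07, 1.20 and 1.28 in RαTd/Td mice 9, 10, 11 and 12. The RαTd/Td mice all lay above the Rα+/+ mice, on the side of the PBS mice. C1qa over C1qb was 0.531, 0.471 and 0.421 in Rα+/+ mice and 0.535, 0.522, 0.608 and 0.693 in RαTd/Td mice, and these groups overlapped. Mice 11 and 12 had the highest values of all IL-4c mice for both ratios. These ratios are given as a description, with no test.

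**Figure D3:**
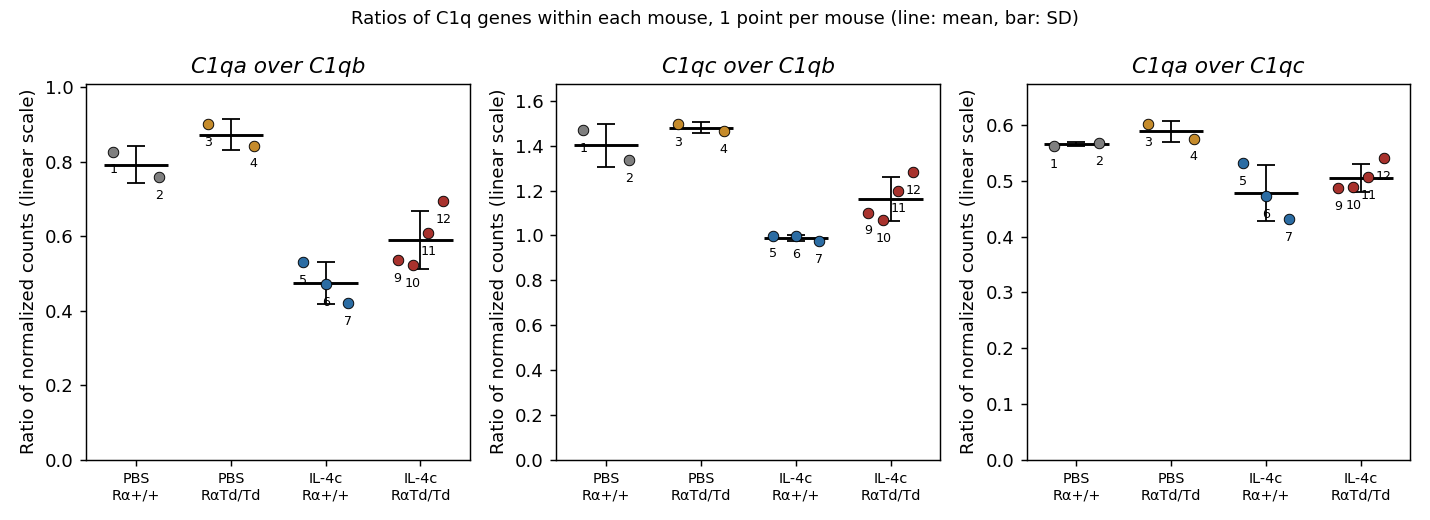
Ratios of the normalized counts of C1q gene pairs within each mouse (linear axes from 0), by group, with mouse numbers, means (lines) and SD (bars). All 3 ratios are lower in the 7 IL-4c mice than in the 4 PBS mice, without overlap.

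As a share of all counts above the limit, the 3 C1q genes made up 7.15% and 7.87% in PBS Rα+/+ mice and 6.72% and 7.11% in PBS RαTd/Td mice. After IL-4c their share was 2.70%, 2.58% and 2.14% in Rα+/+ mice and 3.46%, 3.94%, 4.68% and 4.57% in RαTd/Td mice. The share does not use the housekeeping genes, and it gives the same order of treatments. The total holds the IL-4c-induced genes too, Retnla among them in Rα+/+ mice, and over the 303 genes above the limit in every mouse the mean shares were 7.75% and 7.04% after PBS and 4.60% and 5.46% after IL-4c, for Rα+/+ and RαTd/Td mice in turn.

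The genes with the profile most like each member were sought over the 11 mice, by the root-mean-square difference of mean-centred log2 levels among 302 other genes above the limit in every mouse. For C1qa, Fn1, the gene of fibronectin, came first at 0.12 and C1qc second at 0.14, followed by the TNF receptor gene Tnfrsf1b at 0.19, the integrin gene Itga4 at 0.20 and the IL-10 receptor gene Il10ra at 0.20, against a median of 0.59 over all genes. For C1qc, C1qa was the closest at 0.14. Next came the protease gene Ctss at 0.14, the receptor genes Csf1r at 0.15, Ifnar1 at 0.16 and the Fc receptor gene Fcgr3 at 0.16, with a median of 0.50. C1qa and C1qc were thus among each other's 2 nearest genes.

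C1qb stood further from them. Its closest genes were Tyrobp, which encodes a signalling adaptor, at 0.11, the checkpoint gene Vsir at 0.13, the IL-4 signalling factor gene Stat6 at 0.14, the retinal reductase gene Dhrs3 at 0.14 and the SLAM family receptor gene Cd84 at 0.14, against a median of 0.38. C1qc was the 48th and C1qa the 138th gene by likeness to C1qb. In the other direction C1qb was the 21st gene by likeness to C1qc, at 0.23 against the median of 0.50. It was the 45th by likeness to C1qa, at 0.36 against the median of 0.59. All points share the mice and their normalization factors, and the measure compares the size of changes as well as their direction.

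Of 49 other complement genes listed, 10 were on the panel and 7 were tested. Fcnb, Hc and the integrin gene Itgax were at the limit in every mouse. With IL-4c, 3 of them were called lower and 1 higher in Rα+/+ mice. In RαTd/Td mice the calls were 2 in each direction. The shares called lower were thus near the 32.4% and 36.6% of all tested genes. Of the 445 tested genes, 62 and 68 were called higher in Rα+/+ and RαTd/Td mice in turn. The median of the 7 was -0.45 and -0.38 on the log2 scale, against -0.18 and -0.23 over all tested genes. None was called between genotypes, where 9.66% of all tested genes were called after PBS and 2.7% after IL-4c. None was called in the difference in response either, where 2.02% were.

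C4a and C3 moved in opposite directions with IL-4c. C4a, a gene of the C4 family, was at 13117 and 8161 normalized counts in PBS Rα+/+ mice and 16487 and 18678 in PBS RαTd/Td mice. After IL-4c it was at 4290, 4299 and 5437 in Rα+/+ mice and 5906, 5705, 5880 and 3156 in RαTd/Td mice. It fell in both genotypes, with a change of -1.15 in Rα+/+ mice (limma adjusted p = 0.0100) and of -1.81 in RαTd/Td mice (limma adjusted p = 0.000612). The call in Rα+/+ mice was lost without PBS mouse 1 (-0.81, limma adjusted p = 0.126), with median centring (-0.86, limma adjusted p = 0.0523), with scaling to the summed counts (-0.81, limma adjusted p = 0.0587) and in the adjusted form of the test the methods name. C4a has a near-identical copy, C4b, and whether the probe captures both was not tested. C3, on which all complement pathways converge, was at 965 and 474 in PBS Rα+/+ mice, 843 and 980 in PBS RαTd/Td mice, 3775, 4643 and 6474 in IL-4c Rα+/+ mice and 5702, 6100, 6010 and 3631 in IL-4c RαTd/Td mice. It rose by 2.84 (limma adjusted p = 0.000142) and 2.53 (limma adjusted p = 0.000241) on the log2 scale. Every IL-4c mouse thus had less C4a and more C3 than any PBS mouse.

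The genes of the receptors for the C3a and C5a fragments were both called lower in Rα+/+ mice. C3ar1 fell by 0.87 in Rα+/+ mice (limma adjusted p = 0.0122), a call lost without PBS mouse 1 (-0.67, limma adjusted p = 0.122) and in the adjusted form of the test the methods name. It fell by 0.63 in RαTd/Td mice (limma adjusted p = 0.0370), a call lost under 14 of 27 alternatives. C5ar1 fell by 2.15 in Rα+/+ mice (limma adjusted p = 0.00134). In RαTd/Td mice C5ar1 was at -0.87 (limma adjusted p = 0.0681), and 3 of 27 alternatives called it lower. It was at -0.95 (limma adjusted p = 0.0433) without the housekeeping gene Rpl19 and at -1.18 (limma adjusted p = 0.00264) without mouse 12. In mouse 12 it was 1003 normalized counts, against 375 to 512 in the other mice of the group. The lowest value over the alternatives, -1.32, came without mice 11 and 12. Calr, the gene of calreticulin, which binds C1q, was at 0.43 in Rα+/+ mice (limma adjusted p = 0.0965), and it was called higher without PBS mouse 2 (0.78, limma adjusted p = 0.00476), with median centring (0.73, limma adjusted p = 0.0225) and with scaling to the summed counts (0.78, limma adjusted p = 0.0182). It rose by 0.70 in RαTd/Td mice (limma adjusted p = 0.0102), a call lost without PBS mouse 3 (0.55, limma adjusted p = 0.101). The complement receptor 3 genes Itgam and Itgb2 were not called, at -0.00 and -0.45 in Rα+/+ mice and 0.33 and -0.38 in RαTd/Td mice.

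**Figure D4:**
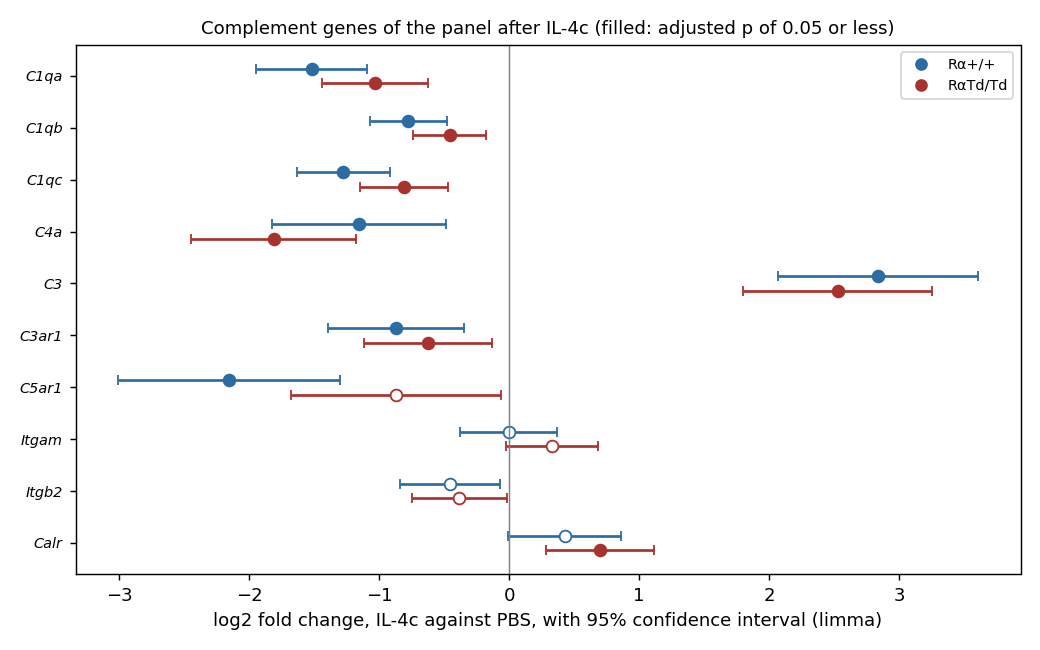
Log2 fold changes with IL-4c against PBS, with 95% confidence intervals from limma, for the C1q genes and the other tested complement genes in Rα+/+ (blue) and RαTd/Td (red) mice, filled where the adjusted p is 0.05 or less. C3 lies at 2.84 and 2.53, the C1q genes between -1.52 and -0.46.

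C1q assists in the clearance of apoptotic cells, and 7 of 19 listed genes of that process were on the panel and tested. After IL-4c 5 of the 7 were called lower in Rα+/+ mice, where 32.4% of all tested genes were. They were Mertk, Timd4 and the scavenger receptor genes Stab1 (-2.84, limma adjusted p = 0.0005), Cd36 (-1.90, limma adjusted p = 0.00455) and Marco (-3.45, limma adjusted p = 0.00382). In RαTd/Td mice 3 were called lower, Mertk, Timd4 (-1.61, limma adjusted p = 8.8e-05) and Cd36 (-1.89, limma adjusted p = 0.00348), while Stab1 was at -0.46 and Marco at -0.29. That count was near the 36.6% of all tested genes called lower. Without mice 11 and 12, Stab1 (-1.02, limma adjusted p = 0.0334) and Marco (-1.46, limma adjusted p = 0.00447) were called lower too. In RαTd/Td mice 1 gene was called higher, Tgm2, the gene of a transglutaminase (2.59, limma adjusted p = 0.000852). Its levels were 228 to 435 normalized counts after IL-4c, against 80.8 in PBS mouse 4 and the limit of 30 in PBS mouse 3, so the size of the rise is uncertain. Over single mice left out it ranged from 1.89, without mouse 3, to 3.29, without mouse 4, and the call was kept. Mertk, a receptor for bridging proteins on dying cells, changed by -1.08 (limma adjusted p = 0.00128) and -0.93 (limma adjusted p = 0.00191) in turn. The call of Cd36 in Rα+/+ mice was lost without PBS mouse 1 (-1.44, limma adjusted p = 0.0780) and in the adjusted form of the test the methods name. The list's median was -1.48 in Rα+/+ mice and -0.46 in RαTd/Td mice, against -0.18 and -0.23 over all tested genes. Mertk was called higher in RαTd/Td than in Rα+/+ mice after IL-4c (0.78, limma adjusted p = 0.0421), unlike the C1q genes, but under 16 of 27 alternatives it was not, among them leaving out any of mice 1, 2, 3, 4, 5, 6, 10, 11 or 12. Pros1 was not called.

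Of 9 transcription factors of macrophage identity used here, 6 were on the panel and 5 were tested. In both genotypes 3 of the 5 were called lower after IL-4c, against 32.4% (Rα+/+) and 36.6% (RαTd/Td) of all tested genes. None was called between genotypes, where 9.66% of all tested genes were called after PBS and 2.7% after IL-4c. Cebpa changed by -1.67 in Rα+/+ mice (limma adjusted p = 0.00101) and -1.43 in RαTd/Td mice (limma adjusted p = 0.0016), and Cebpb, in the same order, by -0.65 (limma adjusted p = 0.00191) and -0.90 (limma adjusted p = 0.000241). The Cebpb call in Rα+/+ mice was lost with median centring (-0.36, limma adjusted p = 0.0523). Irf8, which is among the 3, was at 87.8 to 125 normalized counts in PBS mice and at the limit of 30 in all 7 IL-4c mice. It passed the filter on low values only through the PBS mice. Its direction was thus fixed in advance, and both the count of 3 and the median of the 5 include it. Gata6 and Nr1h3 were not called, and Pparg was at the limit in every mouse. The median of the 5 was -0.65 in Rα+/+ mice and -0.90 in RαTd/Td mice, against -0.18 and -0.23 over all tested genes.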

How the data were processed

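Per the labels and the methods, the authors lysed sorted macrophages, measured their mRNA on Nanostring's Myeloid Innate Immunity v2 panel, and scaled each sample's raw counts by the panel's housekeeping genes, 4 in number (Rpl19, Oaz1, Gusb and Eef1g). The deposited gene values are linear signal in normalized counts, 1 mouse per column, with low values set to 30. The 14 control probes were left as raw counts. Each column's factor (0.750 to 1.88) was chosen so that dividing by it gave whole numbers. It did so within 0.1 for all values used in the choice, which lay above the limit but below the C1q levels. Higher values, those of the C1q genes among them, were divided by the same factor and rounded without this check. The depth is the sum of all values above the limit divided by the factor. Replicates are separate mice of 1 experiment, and no batch is given. Groups followed the labels.

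Genes with a mean above 30 were tested with limma 3.58.1 (R 4.3.3) on log2(normalized count + 1), with 1 coefficient per group. The scripts were tested on simulated data. Means, ratios and shares were computed in Python 3.11.15. Of the other genes of the lists, values were given for those called in any comparison, with the uncalled named, and for each member the 5 genes with the most similar profile were named. Alternatives changed the filter, pseudocount, scaling, housekeeping genes, model, test and mice. The methods' t-test is the unpaired t-test that the paper names for pathway scores and in its general statistics. For gene expression the paper names Nanostring's Advanced Analysis software, so the t-test here does not repeat the study's own test of genes. The members and lists were chosen with earlier results of these data known. Some listed items are not reported here, and the counts and sums of their lists leave them out. No authors' fold changes or p-values were used.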

Additional observations from a re-analysis of the deposited data

Results flagged for a closer look

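Among the results above, 2 had a mouse far from the rest of its group, both in IL-4c RαTd/Td mice and both in mouse 12. For C4a, mouse 12 was at 3156 normalized counts and the other mice at 5705 to 5906, a gap of 0.945 of the group's range on the log2 scale. For C3, it was at 3631 against 5702 to 6100, a gap of 0.870 of the range. Each gap was past Dixon's 95% critical value, and chance marks about 1 in 20 groups. No C1q gene was marked in this way.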

How the results depend on the processing

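No paired analysis was possible because mouse numbers are not shared between groups. The IL-4c falls of all 3 members in Rα+/+ mice and of C1qa and C1qc in RαTd/Td mice kept their call under all 27 alternatives. For C1qb in RαTd/Td mice the call was lost with median centring (-0.20), quantile normalization (-0.22), scaling to the summed counts (-0.11), the methods' t-test after Benjamini-Hochberg adjustment (-0.46) and, over the single mice left out (-0.55 to -0.36), without mouse 4. The difference between genotypes after IL-4c was called with the methods' t-test, unadjusted, at 0.65 for C1qa, 0.34 for C1qb and 0.57 for C1qc, and without mouse 9. Over single mice left out it ranged from 0.55 to 0.78, 0.29 to 0.42 and 0.51 to 0.68. The C1qc difference in response was called with quantile normalization (1.02). After PBS, the genotype difference turned sign with quantile normalization (-0.21, -0.27 and -0.68 for C1qa, C1qb and C1qc), with scaling to the summed counts (-0.080, -0.22 and -0.14), with median centring for C1qb (-0.12) and C1qc (-0.044), and for C1qb without Eef1g (-0.021), without Gusb (-0.033) and without mouse 4 (over single mice left out -0.072 to 0.12). For Marco in RαTd/Td mice IL-4c gave 0.055 with scaling to the summed counts and -0.74 to 0.17 over single mice left out, above 0 without mouse 9 or 10. The cause of these changes was not tested.

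The median of all genes was at -0.18 and -0.23 for IL-4c in Rα+/+ and RαTd/Td mice and moved to 0.12 and 0.03 with median centring, so that the calls of 62 higher and 144 lower became 106 and 92, and 68 and 163 became 104 and 110. With quantile normalization they were 104 and 107, and 89 and 109, and with scaling to the summed counts 114 and 97, and 98 and 97. The split between genotypes was 36 higher and 7 lower after PBS and 7 and 5 after IL-4c, against 16 and 10, and 3 and 5, with median centring, 15 and 8, and 5 and 7, with quantile normalization, and 12 and 10, and 3 and 9, with scaling to the summed counts. The number of genes called was 43 between genotypes after PBS. It was 18 with no filter on low values, 26 with median centring, 23 with quantile normalization, 22 with scaling to the summed counts, 27 without Eef1g, 19 without Gusb, 3 with only the groups compared, 2 with the methods' t-test adjusted, and 3 to 73 over single mice left out (73 without mouse 1, 3 without mouse 4). After IL-4c it was 12, against 5 with no filter, 7 at a mean above 100, 6 above 30 in every mouse, 2 with only the groups compared, 2 and 73 with the methods' t-test adjusted and unadjusted, 4 without mice 11 and 12, and 5 to 27 over single mice left out (27 without mouse 9). For the difference in response it was 9, against 4 at a mean above 100, 2 above 30 in every mouse, 18 with quantile normalization, 19 without mice 11 and 12, and 3 to 34 over single mice left out (34 without mouse 1). The C1q share over genes above the limit in every mouse was 4.60% in IL-4c Rα+/+ and 5.46% in IL-4c RαTd/Td mice. Leaving out mice 11 and 12 was chosen after seeing the data. A count model on recovered counts was not run. The number of mice, 2 in each PBS group, limits precision.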
